A study of Mus musculus with 12 samples.

Results

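The deposited transcript tables hold a run of neighbouring rows, from uc007ujs.2 in row 15377 to uc007vad.1 in row 15854, whose transcripts had lower levels in both Chd8 mutants than in wild-type cells. The run covers 478 of 55419 rows. It was chosen from the comparisons of each mutant with wild type in the same 12 libraries, so its shift in those comparisons is a description here and carries no test. Of the 478 transcripts, 63 had no counts in any library, 128 had too few counts to be tested and 287 were tested. A test needs counts in enough libraries of a group, so the tested transcripts are not a sample of all 478. Of the tested transcripts, 200 had a mean of at least 2 CPM (counts scaled to the size of the library) and 112 a mean of at least 10 CPM. One of the 478 had the same counts in every library as a transcript outside the run, and the pair was summed.

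CHD8 is an ATP-dependent chromatin remodeller of the chromodomain helicase family. It binds near the promoters of many active genes and is known as a negative regulator of Wnt/β-catenin signalling and of p53 targets. Loss of a copy of the human gene is a recurrent finding in autism. RNA was measured in mouse embryonic stem cells (ESC) kept in 2i medium, whose inhibitors of MEK and GSK3 favour naive pluripotency, and in neural progenitor cells (NPC) differentiated from ESC. Each cell type was present as wild type (WT), heterozygous for a Chd8 mutation (CHD8+/-, labelled CHD8_HET, here HET) and homozygous (CHD8-/-, labelled CHD8_KO, here KO). How the gene was altered is not stated in the labels. Each of the 6 groups had 2 libraries. Whether the libraries of a group come from separate cultures is not in the labels, nor is the number of lines or clones per genotype. A p-value here therefore sets a difference only against the scatter of these libraries, and that scatter may be technical. The main fit estimated the scatter over all 6 groups together. A difference between the lines other than Chd8 cannot be told apart from the genotype.

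The files name transcripts by UCSC-style identifiers and do not pair them with genes, and none of the identifiers was found in the reference tables used. No gene name, genome position or sequence is therefore given for any transcript, and neither Chd8 nor markers of the cell types were checked. What the row order follows is not stated in the files. Within the run, 410 identifiers begin with uc007 and 68 begin otherwise. The 478 transcripts had a median length of 2553 bases, against 2138 for all others, and ranged from 24 to 15269 bases. No counts in any library were found for 13.2% of them, against 19.7% of the others. The tested ones had a median of 6.45 CPM, against 4.41 CPM for all 30021 tested transcripts. Total estimated counts per library ran from 9062447 to 14766212 and were lowest in WT among ESC and highest in WT among NPC. The part of this difference in depth in the results was not tested.

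The whole run took a smaller share of the estimated counts in mutant cells. Its mean share was 0.958% in WT ESC, 0.574% in HET ESC and 0.563% in KO ESC. In NPC it was 1.147% in WT, 0.781% in HET and 0.877% in KO. The sums that follow are in CPM scaled between libraries, so their ratios to WT differ from those of the shares. Summed over the 287 tested transcripts, the WT ESC libraries held 10488 and 9556 CPM, the HET ESC libraries 6582 and 6219, and the KO ESC libraries 6601 and 6696. Both mutants lay below both WT libraries, at 0.639 (HET) and 0.663 (KO) of the WT mean, and the HET and KO values were close to each other. In NPC the sums were 9901 and 10088 CPM in WT, 6937 and 7207 in HET, and 8098 and 8066 in KO. Here too no mutant library reached a WT library, and the KO libraries lay above the HET libraries. The most abundant transcript of the run, uc007uqz.2, made up 19.7% to 25.7% of these sums. Without it the ratios to WT were 0.69 and 0.709 in ESC and 0.748 and 0.803 in NPC (HET and KO).

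The shift did not rest on the abundant transcripts. For each library, the median of log2 CPM relative to the mean of the 6 libraries of its cell type was taken over the 200 transcripts of at least 2 CPM, minus the same over all transcripts at that level. This value was 0.36 and 0.38 in the WT ESC libraries, -0.19 and -0.18 in HET ESC, and -0.13 and -0.18 in KO ESC. It was 0.27 and 0.32 in WT NPC, -0.18 and -0.17 in HET NPC, and -0.105 and -0.15 in KO NPC. All 8 mutant libraries thus lay below 0 and all 4 WT libraries above it. The ESC means were 0.37 ± 0.00728 (SD, n = 2) in WT, -0.18 ± 0.00502 in HET and -0.16 ± 0.0417 in KO, and the NPC means 0.30 ± 0.0296, -0.18 ± 0.00764 and -0.13 ± 0.0313. The pooled SD between libraries of a group was 0.0249. The run was chosen for this gap, so its size is no test.

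**Figure D1:**
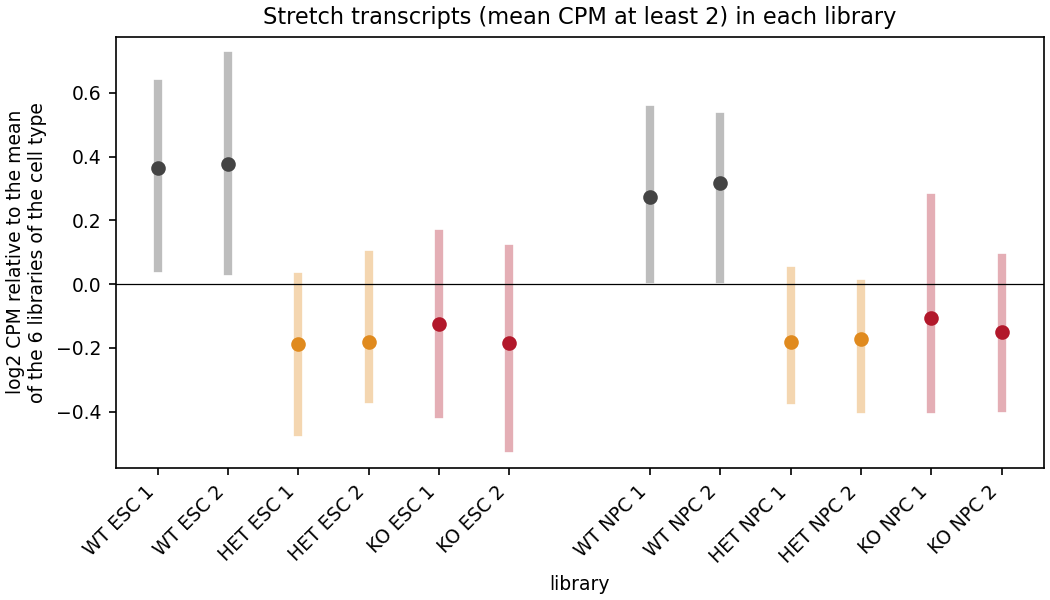
Level of the run in each of the 12 libraries, as log2 CPM relative to the mean of the 6 libraries of the cell type, after subtracting the same median over all transcripts. Points are medians over 200 transcripts and bars run from the first to the third quartile; the 4 WT points lie between 0.27 and 0.38 and the 8 mutant points between -0.19 and -0.105.

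The size of the shift was nearly the same in the 4 comparisons. Over the 287 tested transcripts the median log2 fold change against WT was -0.54 for HET and -0.51 for KO among ESC, and -0.50 for either mutant among NPC. Over all 30021 tested transcripts the medians were 0, 0, -0.01 and -0.02. Below 0 lay 229 of the 287 for HET and 211 for KO among ESC, and 222 and 214 among NPC. Of all tested transcripts, 48.8%, 48.1%, 50.8% and 51.2% lay below 0 in the same order. Of the 287, 52.6% lay below 0 in all 4 comparisons, where 16.3% of all tested transcripts did. The 2 comparisons of a cell type share their WT libraries, so these 4 values are not independent of each other.

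Among the 112 transcripts of at least 10 CPM, where single values are more precise, the median relative to all transcripts of that level was -0.58 in HET ESC and -0.58 in KO ESC, which is 0.667 and 0.669 of the WT level. In NPC it was -0.52 in HET and -0.51 in KO, or 0.696 and 0.704 of WT. The interquartile range ran from -0.84 to -0.35 in HET ESC and from -0.74 to -0.31 in HET NPC. It was wider in KO, from -0.96 to -0.18 in ESC and from -0.82 to -0.10 in NPC. Its width in the run was 0.499 (HET ESC), 0.785 (KO ESC), 0.43 (HET NPC) and 0.721 (KO NPC), and over all transcripts of that level 0.461, 0.646, 0.454 and 0.621, so the wider spread in KO was also present outside the run. A fall of more than 2-fold was seen for 16, 28, 16 and 19 of the 112 (HET ESC, KO ESC, HET NPC, KO NPC), and a value above 0 for 11, 19, 9 and 21. Below 0 lay 90.2%, 83.0%, 92.0% and 81.25% of the 112, against 46.6%, 44.9%, 50.5% and 49.2% of all transcripts of that level. The share of these with a fall of more than 2-fold is not given here.

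**Figure D2:**
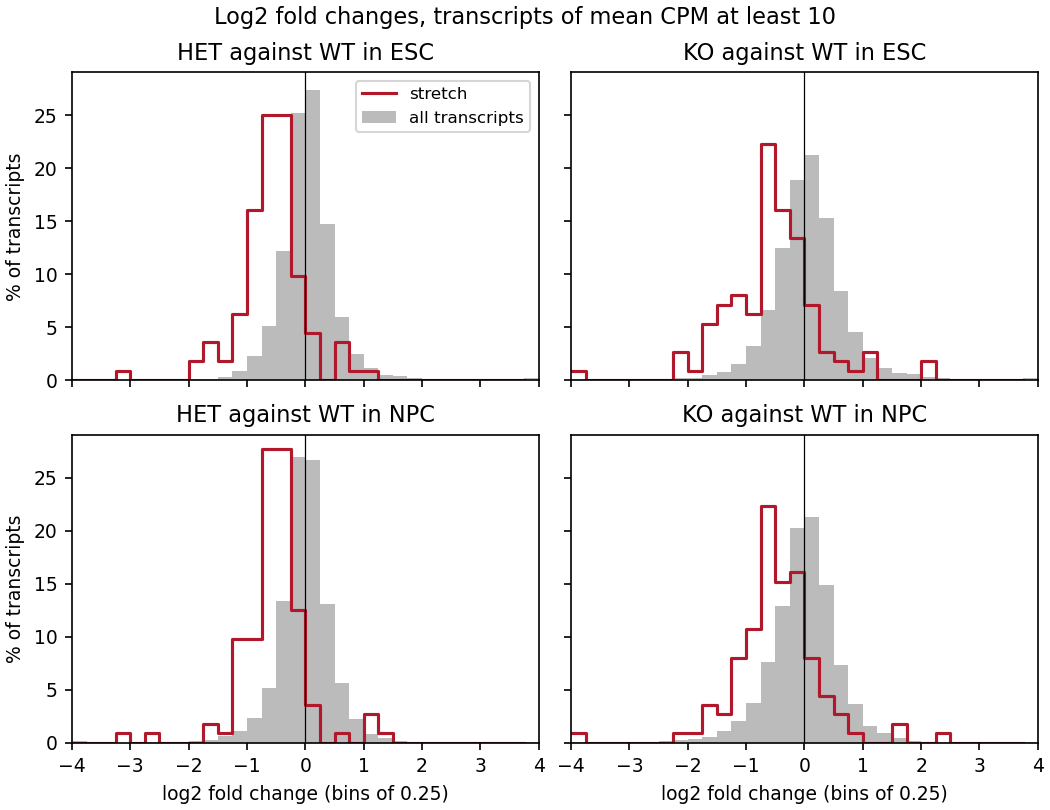
Share of transcripts (%) by log2 fold change in bins of 0.25, for the 112 transcripts of the run (red line) and all transcripts (grey bars) with a mean of at least 10 CPM; values beyond the ends of the axis are counted in the end bins. In each of the 4 comparisons with WT the red line is displaced to the left, by -0.51 to -0.58 at the median, and it is broader in KO than in HET.

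The shift was present at every level and length looked at. For the 87 transcripts under 2 CPM, the 88 from 2 to 10, the 79 from 10 to 50 and the 33 above 50 CPM, the medians in HET ESC were -0.60, -0.41, -0.59 and -0.48. In KO NPC they were -0.58, -0.41, -0.55 and -0.44. Divided by length into 3 classes (67, 66 and 67 transcripts) at 2727 and 3992 bases, the transcripts of at least 2 CPM had medians of -0.47, -0.47 and -0.58 in HET ESC and of -0.51, -0.40 and -0.64 in KO ESC, from short to long. Every median of these classes lay below 0 in all 4 comparisons.

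Along the rows the lowering was traced in windows. In windows of 25 transcripts of at least 2 CPM, medians relative to all transcripts at that level were taken over the run and about 400 rows on either side. The last window before the run stood at 0.01, 0.02, 0.08 and 0.30 (HET ESC, KO ESC, HET NPC, KO NPC). The first window inside it, from uc007ujs.2 to uc007umf.1 in rows 15377 to 15445, stood at -0.13, 0.10, -0.11 and -0.24. The next, from uc007umi.2 to uc007uoc.2 in rows 15448 to 15497, stood at -0.73, -0.96, -0.61 and -0.53. So the first 25 transcripts of the run were hardly lowered, and the step lay after them. With windows of 15 it could be placed more closely. Rows 15377 to 15416 stood at 0.13, 0.25, -0.07 and -0.11, and rows 15417 to 15456 at -0.67, -0.52, -0.39 and -0.39.

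At the other end the lowering ran past the last row of the run. The last window inside, rows 15815 to 15854, stood at -0.74, -0.91, -0.61 and -0.60. The first window after it, rows 15858 to 15937, still stood at -0.26, -0.35, -0.24 and -0.24. In windows of 15, rows 15858 to 15892 stood at -0.47, -0.56, -0.41 and -0.26, and rows 15895 to 15950 at 0.19, 0.46, -0.07 and 0.16. By these finer windows, the lowered rows were about 15417 to 15892, which leaves out the first rows of the run and adds rows after its end. The choice of windows decided where the limits fell. The first and last windows past -0.25 in all 4 comparisons spanned rows 15448 to 15854 with windows of 25 (though not each window between them was), rows 15417 to 15892 with windows of 15, and began at row 15377 with windows of 50 or with transcripts of at least 10 CPM only.

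Single transcripts at the limits scattered. Just before the run, uc007ujp.2 and uc007ujq.1 lay between -0.36 and 0.23 in the 4 comparisons. Just inside, uc007ujs.2 had log2 fold changes of 0.54 in HET ESC and -0.82 in KO NPC. At the far end uc007vac.1, in row 15853, lay between -0.60 and -0.30 in all 4. Just after the run, uc007vah.2, in row 15859, lay at -1.03, -0.41, -0.05 and 0.545 (HET ESC, KO ESC, HET NPC, KO NPC). In the same order uc011zqi.1, in row 15862, lay at -0.54, -0.55, -1.47 and -1.51. The row limits thus describe a group of neighbours, not a boundary that each transcript follows.

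In windows of 25, every window between the limits was lowered. Over the 7 windows after the first, the medians ran from -0.74 to -0.46 in HET ESC, while those of NPC ran from -0.61 to -0.18 (HET) and from -0.60 to -0.27 (KO). In KO ESC they ranged more widely, from -0.96 to -0.23, and rose and fell from window to window. Of the 8 windows inside the run, 5 were below -0.25 in all 4 comparisons. With windows of 15, 9 of 13 were. Among these the lowering was weak in places, as rows 15749 to 15773 stood at -0.46, -0.28, -0.18 and -0.02 (HET ESC, KO ESC, HET NPC, KO NPC). Of 789 windows of 25 taken over all other rows, 0 were below -0.25 in all 4. In a single comparison 22 (HET ESC), 96 (KO ESC), 20 (HET NPC) and 90 (KO NPC) were so. The run was chosen as lowered in these comparisons, so this contrast is a description and no test. The window of 15 directly after the run, given above, was past -0.25 in all 4. The window of 25 directly after the run was left out of what follows. The 13 other windows of 25 within about 400 rows of the run ranged from -0.10 to 0.19 in HET ESC and from -0.34 to 0.30 in KO NPC.

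**Figure D3:**
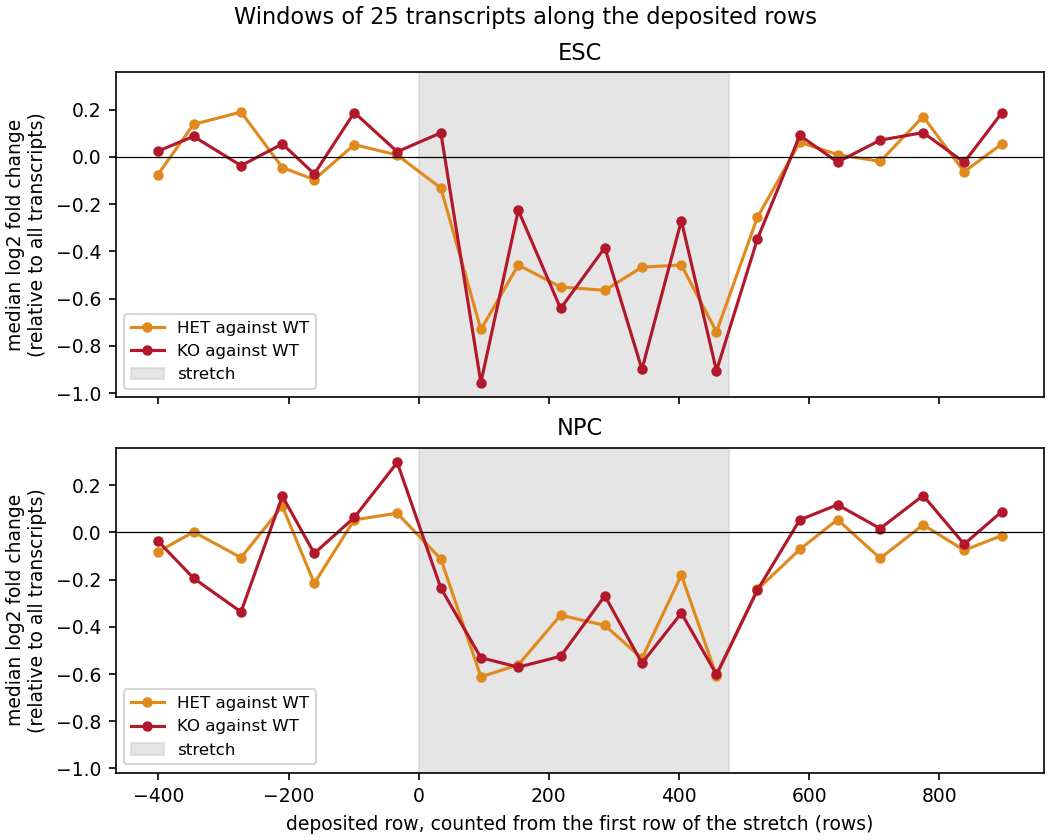
Median log2 fold change against WT, relative to all transcripts, in windows of 25 transcripts, plotted by deposited row counted from the first row of the run (grey). In ESC and NPC both mutants step down after the first window inside the grey area. Medians run from -0.24 to 0.10 in that window and from -0.96 to -0.53 in the next. They stay below 0 to the end of the grey area and in the first window after it, and are at about 0 in the window that follows.

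No further step from HET to KO was seen at the median. The median log2 fold change of KO against HET was 0 in ESC and 0.01 in NPC, beside 0.00 and 0 over all tested transcripts, and the interquartile range ran from -0.38 to 0.37 in ESC and from -0.33 to 0.36 in NPC. None of the 287 was called in either cell type (edgeR quasi-likelihood test, adjusted p under 0.05), where edgeR called 0.00333% of all tested transcripts higher in ESC and 0.00666% lower in NPC. At an unadjusted p under 0.05, 9 were lower and 15 higher in KO ESC (4.49% and 4.81% of all tested transcripts), and 12 lower and 13 higher in KO NPC (4.37% and 3.01%). Both KO libraries lay below both HET libraries for 51 and above for 65 in ESC (19% and 20.8% of all), and for 41 and 68 in NPC (19.9% and 20%). DESeq2 called 3 lower and 8 higher in ESC and 4 lower and 3 higher in NPC, and limma called 0. Over all 30021 tested transcripts DESeq2 called 1233 in ESC and 735 in NPC, and limma 3 and 7. That edgeR made no call does not show that the mutants were equal for single transcripts.

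At the median the lowering was of like size in both cell types, and somewhat smaller in NPC. In the summed CPM, HET stood at 0.639 of WT in ESC and 0.708 in NPC, and KO at 0.663 and 0.809. The difference between the NPC and the ESC fold change had a median of 0.04 for HET and 0.07 for KO over the 287 transcripts. Over all tested transcripts it was -0.02 and -0.06, so relative to these it was 0.06 for HET and 0.12 for KO. In the test of that difference edgeR called 0 of the 287 for either mutant (lowest adjusted p = 0.444 for HET and 0.159 for KO), with 17 and 25 at an unadjusted p under 0.05, where 5.22% and 9.16% of all tested transcripts passed at that level. DESeq2 called 3 for HET (1 lower, 2 higher) and 14 for KO (7 lower, 7 higher), and limma 0. Over all tested transcripts DESeq2 called 264 for HET and 984 for KO, and limma 1 and 2. With 2 libraries per group, the absence of edgeR calls does not show that the lowering was equal in both cell types.

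Few single transcripts passed the test, and most of those were lower. In KO ESC edgeR called 13 of the 287 lower and 1 higher (adjusted p under 0.05), where it called 0.49% of all tested transcripts lower and 0.716% higher. The number rested on single libraries. It was 0 without either KO ESC library (66 at an unadjusted p under 0.05 in each case), 1 without WT ESC replicate 2, 2 to 5 without any one HET or NPC library and 10 without WT ESC replicate 1. In KO NPC 4 were called lower and 1 higher, where 0.137% of all tested transcripts were lower and 0.0766% higher, and the count was 2 without either WT ESC library and 0 without any one of the other 10. In HET ESC 1 was called lower (0.0133% of all), a count that was 0 without HET ESC replicate 2 or KO ESC replicate 2. In HET NPC edgeR called 0 of the 287 (0% of all lower, 0.00999% higher), with 61 lower and 8 higher at an unadjusted p under 0.05 (3.87% and 4.03% of all), DESeq2 called 38 and limma 1. At that unadjusted level 70 were lower and 3 higher in HET ESC (3.82% and 4.85% of all), 73 and 9 in KO ESC (6.42% and 7.87%), and 65 and 9 in KO NPC (6.8% and 5.85%). DESeq2 called 44 in HET ESC, 66 in KO ESC and 48 in KO NPC, of which 41, 59 and 44 were lower. Over all tested transcripts DESeq2 called 1058, 2745 and 2237 in these and 961 in HET NPC, lower and higher together.

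Counted without a test, the separation was wider. In HET ESC 144 of the 287 had both mutant libraries below both WT libraries and 16 above, where 17.5% and 18.1% of all tested transcripts did so. In KO ESC 135 lay below and 31 above (20.7% and 22.1% of all). In HET NPC the counts were 143 and 20 (20.6% and 19.6%), and in KO NPC 136 and 33 (24.6% and 23%). All HET and KO libraries lay below the WT libraries in both cell types at once for 63 of the 287, or 22%, against 2.42% of all tested transcripts. They lay above for 3, or 1.05%, against 2.51%.

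uc007urk.2, in row 15598 and 1731 bases long, was called lower in 3 of the 4 comparisons. It stood at 292 and 353 CPM in WT ESC, 112 and 99.4 in HET ESC and 98.5 and 100.1 in KO ESC. Every mutant ESC library lay far below both WT libraries, and HET and KO overlapped. It was called in both, at -1.61 on the log2 scale in HET (SE 0.125, adjusted p = 0.0104 by edgeR) and at -1.70 in KO (SE 0.125, adjusted p = 0.00522 by edgeR). In NPC it stood at 191 and 208 CPM in WT, 119 and 121 in HET and 86.0 and 96.0 in KO, without overlap. There the fold change was -0.74 in HET (edgeR adjusted p = 0.161) and -1.13 in KO (edgeR adjusted p = 0.036). The HET ESC call ended without either HET ESC library or KO ESC replicate 2, and the KO ESC call without either KO ESC library (edgeR adjusted p up to 0.0662 and 0.0603). With each cell type fitted alone, the HET ESC, KO ESC and KO NPC calls of uc007urk.2 all ended (edgeR adjusted p = 0.285, 0.134 and 0.114). Among the fits that left out a library, the KO NPC call held only without WT ESC replicate 1 or 2, and its adjusted p from edgeR reached 0.214 in the others.

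The most abundant transcript, uc007uqz.2, in row 15586 and 956 bases long, followed the run in ESC and in HET NPC. It stood at 2937 and 2205 CPM in WT ESC, 1312 and 1206 in HET ESC and 1201 and 1533 in KO ESC, all mutants below both WT libraries. In NPC it stood at 2405 and 2559 CPM in WT, 1432 and 1478 in HET, and 1989 and 2111 in KO. The KO NPC libraries thus lay between HET and WT without overlap, at a log2 fold change of -0.28 against WT (SE 0.162, edgeR adjusted p = 0.549) where HET stood at -0.77. In KO ESC it was called, at -0.91 (edgeR adjusted p = 0.0464). That call ended with the cell type fitted alone, where edgeR called 0 of the run in KO ESC.

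The next in abundance was uc007uzz.1 in row 15850. It fell less than the median of the run in HET ESC, HET NPC and KO NPC, and more in KO ESC. It stood at 884 and 840 CPM in WT ESC, 700.4 and 679 in HET ESC and 601 and 513 in KO ESC, and the 3 genotypes did not overlap. In NPC it stood at 773 and 738 CPM in WT, 565 and 649 in HET and 664 and 649 in KO, where HET and KO met but both stayed below WT. Its log2 fold changes were -0.32, -0.63, -0.32 and -0.20 (HET ESC, KO ESC, HET NPC, KO NPC), of which KO ESC was called (edgeR adjusted p = 0.0449). This call too ended with the cell type fitted alone. uc007usi.2, in row 15625 and 9416 bases long, had 205 and 230 CPM in WT ESC and 115 to 151 in the mutant ESC libraries. In NPC its HET libraries (188 and 165) reached into the WT range (244 and 186), while KO (152 and 139) lay below.

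uc007uxy.2 in row 15785 was named for the size of its fall in the comparison where it moved least. It stood at 73.1 and 120 CPM in WT ESC and at 32.5 to 47.4 in the 4 mutant ESC libraries, and at 31.1 and 29.7 CPM in WT NPC and 9.67 to 15.2 in the mutants. Its log2 fold changes were -1.21, -1.28, -1.08 and -1.39, and none passed the test (edgeR adjusted p = 0.0873 to 0.364). uc007uso.1 in row 15629 followed, from 27.8 and 21.8 CPM in WT ESC to 6.43 to 16.5 in the mutants and from 29.4 and 21.3 in WT NPC to 8.38 to 13.7, with log2 fold changes of -0.99 to -1.44 (edgeR adjusted p = 0.151 to 0.57). For both, every mutant library lay below both WT libraries of its cell type. uc007umv.2, in row 15461, was called in KO NPC, where it stood at 45.4 and 42.0 CPM against 89.2 and 114 in WT (log2 fold change -1.22, SE 0.147, edgeR adjusted p = 0.0417). HET NPC had 49.6 and 52.0 CPM, close to KO. The KO NPC call of uc007umv.2 was lost without any one of the 12 libraries (edgeR adjusted p = 0.0507 to 0.214), although its log2 fold change stayed between -1.40 and -1.04 over every alternative run.

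**Figure D4:**
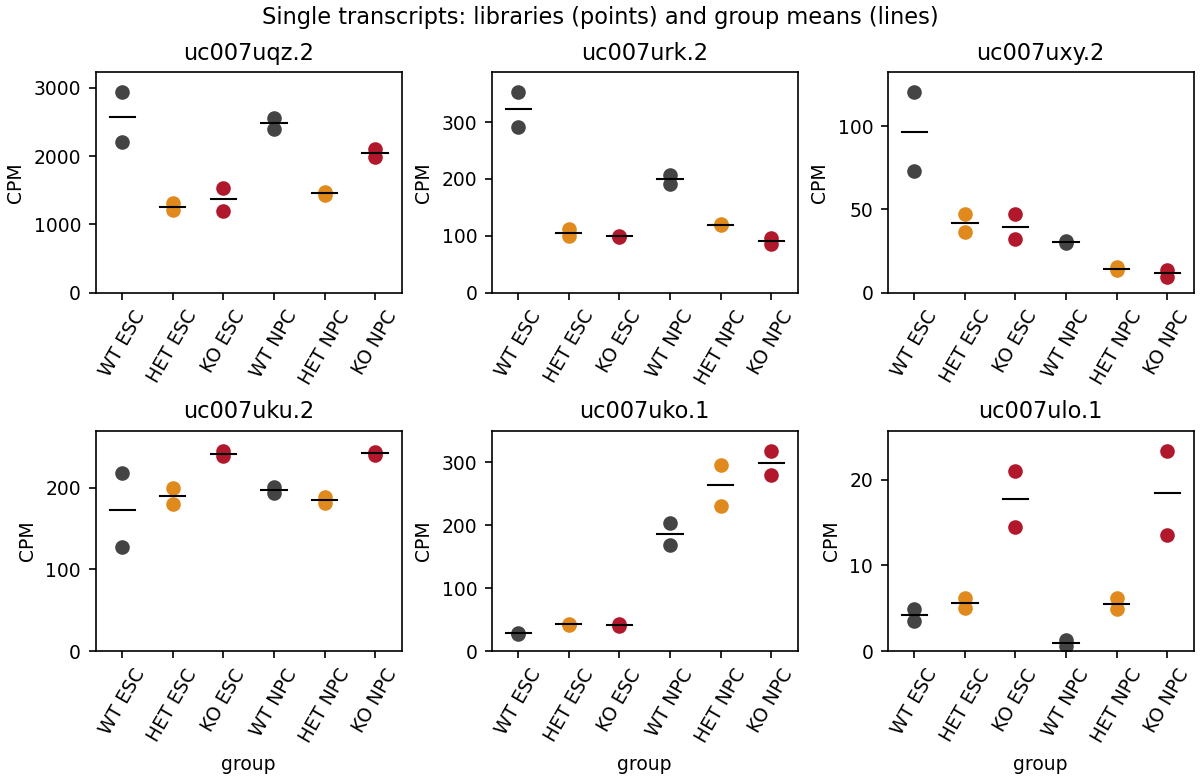
CPM of 6 transcripts in each group; points are the 2 libraries and lines their mean. In the upper row uc007uqz.2, uc007urk.2 and uc007uxy.2 are lower in both mutants in both cell types, and in the lower row uc007uko.1 and uc007ulo.1 are higher in the mutant libraries, while uc007uku.2 is higher in KO in both cell types, lower in HET NPC and overlaps WT in HET ESC.

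Some transcripts went against their neighbours. Of the 200 at 2 CPM or more, 8 (4%) lay above 0 in all 4 comparisons with WT, against 17.3% of all tested transcripts at that level, and 121 (60.5%) lay below 0 in all 4, against 17.3%. Of the 8, 3 lay in the first window of the run, which was itself hardly lowered. uc007uko.1, in row 15400 and 4451 bases long, had higher values in every mutant library. It stood at 27.9 and 28.7 CPM in WT ESC, 43.9 and 41.8 in HET ESC and 40.5 and 42.8 in KO ESC, and at 169 and 203 CPM in WT NPC, 231 and 297 in HET NPC and 318 and 281 in KO NPC. No mutant library overlapped WT, and the log2 fold changes were 0.60, 0.56, 0.50 and 0.69, but none passed the test (edgeR adjusted p = 0.109 to 0.408). uc007uku.2, in row 15406, the third in abundance, was at 127 and 218 CPM in WT ESC and 180 to 245 in the mutants, within or just above the WT range, and in NPC its KO libraries (244 and 240) lay above WT (200 and 193) and its HET libraries (188 and 181) below.

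uc007ulo.1, in row 15427, stood in KO far above WT. It had 4.86 and 3.51 CPM in WT ESC, 4.98 and 6.20 in HET ESC and 14.5 and 20.9 in KO ESC, and 0.63 and 1.34 CPM in WT NPC, 4.90 and 6.15 in HET NPC and 23.3 and 13.5 in KO NPC. The 3 genotypes followed in the order WT, HET, KO without overlap in both cell types. It was called in KO NPC (log2 fold change 4.21, SE 0.481, edgeR adjusted p = 0.0385), a call lost without any one of the 12 libraries (edgeR adjusted p = 0.0507 to 0.161). uc007ujw.1, in row 15381 within the first window, was the 1 transcript of the run called higher in KO ESC. It stood at 16.0 and 20.4 CPM in WT ESC, 29.1 and 44.3 in HET ESC and 79.9 and 86.3 in KO ESC (KO log2 fold change 2.19, SE 0.278, edgeR adjusted p = 0.0258). In NPC all 6 libraries lay between 3.29 and 4.80 CPM. The KO ESC call of uc007ujw.1 held in 5 of the 12 fits that left out a library, and its adjusted p in these fits ran from 0.0339 to 0.0901. It was lost without either KO ESC library, any one WT library or KO NPC replicate 2.

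At the median differentiation moved the run much like other transcripts, with somewhat more rises in the run. The median log2 fold change of NPC against ESC was 0.06 in WT, 0.08 in HET and 0.11 in KO over the 287 transcripts, beside 0.03, 0 and 0 over all tested transcripts, and the interquartile range in WT ran from -0.56 to 0.82. In WT edgeR called 29 higher and 21 lower (10.1% and 7.32% of the 287), where it called 6.83% and 5.33% of all tested transcripts. In HET 29 were higher and 12 lower (10.1% and 4.18% of the 287), where edgeR called 6.3% and 5.16% of all tested. In KO 32 were higher and 18 lower (11.1% and 6.27% of the 287), where 6.59% and 6.42% of all tested were. Below 0 in KO lay 40.4% of the 287, against 49.5% of all tested. Both NPC libraries lay below both ESC libraries for 72 and above for 87 in WT (25% and 28.8% of all tested), for 71 and 93 in HET (27% and 28.5%), and for 68 and 97 in KO (29% and 28.5%). Transcripts of the run thus moved both ways on differentiation.

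Among the transcripts that rose on differentiation were the neighbours uc007uwx.2 and uc007uwy.1, in rows 15754 and 15755. uc007uwx.2 had 0 to 0.77 CPM in the ESC libraries, 37.7 and 44.9 in WT NPC, 76.5 and 108 in HET NPC and 133 and 141 in KO NPC. It was called against ESC in every genotype (edgeR adjusted p = 0.00258 in WT, 0.00138 in HET and 0.00111 in KO), in all fits that left out a library. uc007uwy.1 had 0.08 to 0.87 CPM in ESC, 22.4 and 20.5 in WT NPC, 46.8 and 42.4 in HET NPC and 61.9 and 66.1 in KO NPC. Both went against the run in NPC, where WT, HET and KO were in rising order without overlap, though neither passed the test in KO against WT (edgeR adjusted p = 0.271 and 0.161). Transcripts that overlap share reads in estimated counts, and whether this pair does is not known from the files.

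Of those that fell, uc007vad.1, the last row of the run, stood at 29.2 and 37.4 CPM in WT ESC, 12.2 and 10.5 in HET ESC and 10.8 and 9.65 in KO ESC. In NPC all 6 libraries lay between 1.14 and 1.65 CPM, with log2 fold changes of 0.12 in HET and 0.21 in KO. No lowering by genotype was seen at that low level. In the test of the difference between cell types, edgeR did not call uc007vad.1 for either mutant. The log2 fold change of uc007vad.1 on differentiation was -4.75 in WT (SE 0.289, edgeR adjusted p = 0.000164). The KO ESC fall of uc007vad.1 was -1.70 on the log2 scale (SE 0.25, adjusted p = 0.0322 by edgeR). Its log2 fold change stayed between -1.865 and -1.516 over every alternative run, but the call depended on single libraries. HET ESC, at -1.55, was not called (edgeR adjusted p = 0.122).

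Further transcripts named by the rule for differentiation follow. uc007ujw.1, described above for its high level in KO ESC, was lower in NPC in every genotype, by log2 fold changes of -2.12 in WT, -3.12 in HET and -4.39 in KO (edgeR adjusted p = 0.00317, 0.000801 and 0.000268). uc007umr.2 in row 15457 had 0.36 and 0 CPM in WT ESC and 13.2 and 27.4 in WT NPC, and was called higher (edgeR adjusted p = 0.014), a call lost without WT ESC replicate 2 or WT NPC replicate 2. In the mutant ESC libraries it had 1.17 to 9.0 CPM, above both WT ESC libraries. uc007urz.1 in row 15614 had 20.6 and 18.4 CPM in WT ESC and 0.35 and 0 in WT NPC (edgeR adjusted p = 0.0162, lost without WT NPC replicate 2), and 20.7 and 6.09 CPM in KO ESC against 0 in both KO NPC libraries (edgeR adjusted p = 0.0109, lost without either KO NPC library). uc007uoq.1 in row 15512 had 24.6 and 26.1 CPM in HET ESC and 2.07 and 0 in HET NPC (edgeR adjusted p = 0.0255, lost without either HET ESC library). Its WT libraries had 19.3 and 24.5 CPM in ESC and 6.50 and 12.6 in NPC, so both mutants were below WT in NPC (2.49 and 3.56 CPM in KO) and at or above it in ESC.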

How the data were processed

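RNA was sequenced from 12 libraries, 2 for each of 6 groups, made with a SMARTer stranded kit from rRNA-depleted total RNA, per the labels' protocols. Reads were trimmed with cutadapt 1.16 and quantified with kallisto, with build mm9, per the submitters' processing notes (no version listed for kallisto). The deposited tables give estimated counts and TPM (length- and depth-scaled abundance) for each transcript, per the file headers. Estimated counts were rounded. Transcripts with equal values in every library (to 2 decimals, at least 10 counts in total) were summed, a rule chosen after the files were seen. edgeR 4.0.16 (R 4.3.3) was used with filterByExpr (minimum count 10), TMM scaling and a robust quasi-likelihood fit of the 6 group means, with Benjamini-Hochberg adjustment over all 30021 tested transcripts. CPM values are TMM-scaled. DESeq2 1.42.0, limma 3.58.1 on log2(TPM + 1), other filters, fewer libraries and other windows were alternatives. The script was tested on simulated data.

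The row run and all lists were chosen with earlier results of these data known. Transcripts are named by rule: per comparison, up to 2 rises and 2 falls that were called, at least 5 CPM and without overlap; the 4 most abundant; those without overlap whose least moved comparison with WT was largest, 2 up and 2 down; and the first and last row. Transcripts at row or window limits are named beside these.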

Additional observations from a re-analysis of the deposited data

How the results depend on the processing

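With 2 libraries per group, calls on single transcripts depended on the tool and the median shift less so. Of 240 alternative values for the run, 149 stayed within 1.5 times the count or within 0.0249 of the median, and 91 moved further. The 4 medians against WT stayed below 0 throughout, while medians near 0 (KO against HET in ESC, NPC against ESC in WT) changed sign. The number of calls in HET ESC, KO ESC, HET NPC and KO NPC was 44, 66, 38 and 48 with DESeq2. Over all tested transcripts DESeq2 called 1058, 2745, 961 and 2237. limma on log2(TPM + 1) called 1 in HET NPC and 19 in KO NPC (31 and 451 over all tested transcripts). With each cell type fitted alone, 0 were called in HET ESC, KO ESC and KO NPC. With transcripts of at least 10 CPM only, 2, 30 and 18 were called in these, and with no filter on low counts 9 in KO ESC. The share of all transcripts called is not given for these settings or for the fits that left out a library. Their counts are therefore not set against it. Leaving out 1 library gave 0 to 1 in HET ESC, 0 to 10 in KO ESC and 0 to 2 in KO NPC.

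Medians here are relative to all transcripts. The median shift in HET ESC, KO ESC, HET NPC and KO NPC was -0.351, -0.311, -0.347 and -0.305 with limma, and -0.585, -0.579, -0.523 and -0.507 at 10 CPM or more. With no filter it was -0.451 in HET ESC, -0.35 in KO ESC and -0.357 in KO NPC. In KO ESC it was -0.534 with the cell type alone and -0.533 without the first and last 50 rows. Leaving out 1 library gave -0.593 to -0.463, -0.581 to -0.45, -0.491 to -0.457 and -0.49 to -0.384. KO against HET was 0.025 in ESC with limma and 0.038 in NPC with the cell type alone, and 0 to 0.049 in NPC without 1 library. NPC against ESC was 0.078 (limma) and -0.002 (ends trimmed) in WT, and 0.151 (10 CPM), 0.085 (no filter) and 0.061 (ends trimmed) in KO. Without 1 library it ran from -0.031 to 0.036 in WT, 0 to 0.152 in HET and 0.07 to 0.241 in KO. The first lowered row was 15417 and the last 15892 with windows of 15, the first 15377 with windows of 50, and 15377 to 15853 with 10 CPM or more. The causes were not tested.

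Replicate numbers are shared between groups, but the labels do not say that they pair libraries. Differences between replicates 1 and 2 correlated across groups by 0.0301 to 0.187 in ESC and by -0.202 to -0.019 in NPC. With the replicate block, 0 were called in HET ESC, 1 in KO ESC and 0 in KO NPC, the KO against HET median in ESC was 0.025 and the NPC against ESC median in HET was 0.114. On differentiation, the calls of uc007umr.2 in WT, uc007uoq.1 in HET and uc007urz.1 in WT were not made with the block (edgeR adjusted p = 0.0562, 0.101 and 0.0544), nor was uc007urk.2 in HET ESC (0.137) or KO NPC (0.115).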

Other observations

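Single transcripts of the run kept part of their rank between cell types, which share no libraries. Across the 112 transcripts of at least 10 CPM, the KO fold changes in ESC and NPC had a Pearson correlation of 0.667 and a Spearman correlation of 0.536, and the HET fold changes 0.392 and 0.52. Across all 10442 tested transcripts of that level, the values were 0.301 and 0.372 for KO and 0.182 and 0.356 for HET. These are correlations across transcripts, which are not independent replicates, and all of them share the fitted library scaling. The run was chosen from these comparisons with WT, and it includes a first window that was hardly lowered. Its higher correlations are therefore a description and no test. The KO against HET fold changes, which leave WT out, had correlations of 0.6 and 0.457 in the run and 0.235 and 0.355 over all.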
